A study of Homo sapiens with 33 samples.

Results

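The comparison of OVCAR3 ResA with parental OVCAR3 rested on 6 of the 33 libraries of the series, 3 of each line, and every gene of the deposited count table that passed the test's own filter was a member. OVCAR3 is an established human ovarian carcinoma line, and OVCAR3 ResA is a platinum-resistant line that was selected from it by repeated short pulses of cisplatin at rising dose and then grown without the drug. OVCAR3 ResB was selected from the same parent in a separate course of pulses and is given here only as a further level beside ResA. Gene levels were estimated from mRNA libraries against GRCh38. Each line was sampled 3 times and nothing in the labels says whether these came from separate cultures, so that p-values measure the spread between libraries, which may be technical. ResA is 1 selected line, and a difference from its parent is a difference of that line.

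Cisplatin crosslinks neighbouring purines in DNA. Cells can lower its effect by taking up less drug or exporting more, by binding it to glutathione or metallothioneins, by excising or bypassing the adducts, or by failing to start apoptosis. Ovarian high-grade serous carcinoma keeps the lineage factors of the Mullerian epithelium and sheds glycoproteins that serve as serum markers. The keratins of epithelial cells include the simple pair KRT8 and KRT18 and the keratins of stratified layers.

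The 6 libraries held 22423982 to 36622282 counts in total. The replicate number mattered as well as the line: mitochondrial rRNA took 2.39, 4.93 and 7.52% of counts in OVCAR3 replicates 1, 2 and 3 and 1.86, 3.79 and 5.57% in ResA replicates 1, 2 and 3, and same-numbered libraries of the 2 lines deviated together, which is why the replicate number was a term of the fit. All 10 markers of ovarian carcinoma epithelium were at 1 TPM (a level per transcript length, scaled to the same total in every library) or more in all 6 libraries. Their summed level was 5864 to 7685 TPM in OVCAR3 and 2780.2 to 3336 TPM in ResA. In OVCAR3 most of this sum came from KRT8 and KRT18, which were lower in ResA. Of the other markers given below, WT1, MUC16 and PAX8 were lower, EPCAM was not called, and CDH1, KRT7 and MECOM were higher. The 8 immune markers summed to at most 1.59 TPM, with 3 at 0 in all 6 libraries, and the 5 endothelial markers to at most 0.871 TPM. Of 6 fibroblast markers, only COL1A1 reached 1 TPM, and the 6 summed to 5.46 to 9.20 TPM in OVCAR3 and 9.39 to 15.1 TPM in ResA.

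Of 18160 genes tested with DESeq2 at an adjusted p under 0.05, 8146 were called (44.9%), 3992 higher in ResA (22.0%) and 4154 lower (22.9%). A change of at least 2-fold was called higher for 1449 genes (7.98%) and lower for 1783 genes (9.82%). The median log2 fold change over all genes tested was -0.02. Counts for a gene group are read below against 22.0% higher and 22.9% lower. Among the groups described below, those with more members higher than lower included stratified epithelium and basement membrane, ERBB and MAPK feedback, glycolysis, nucleotide excision repair and MHC class I, and those with more lower than higher included the Mullerian lineage, WNT, NF-kB, the amino acid stress response, heat shock and the respiratory chain.

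**Figure D1:**
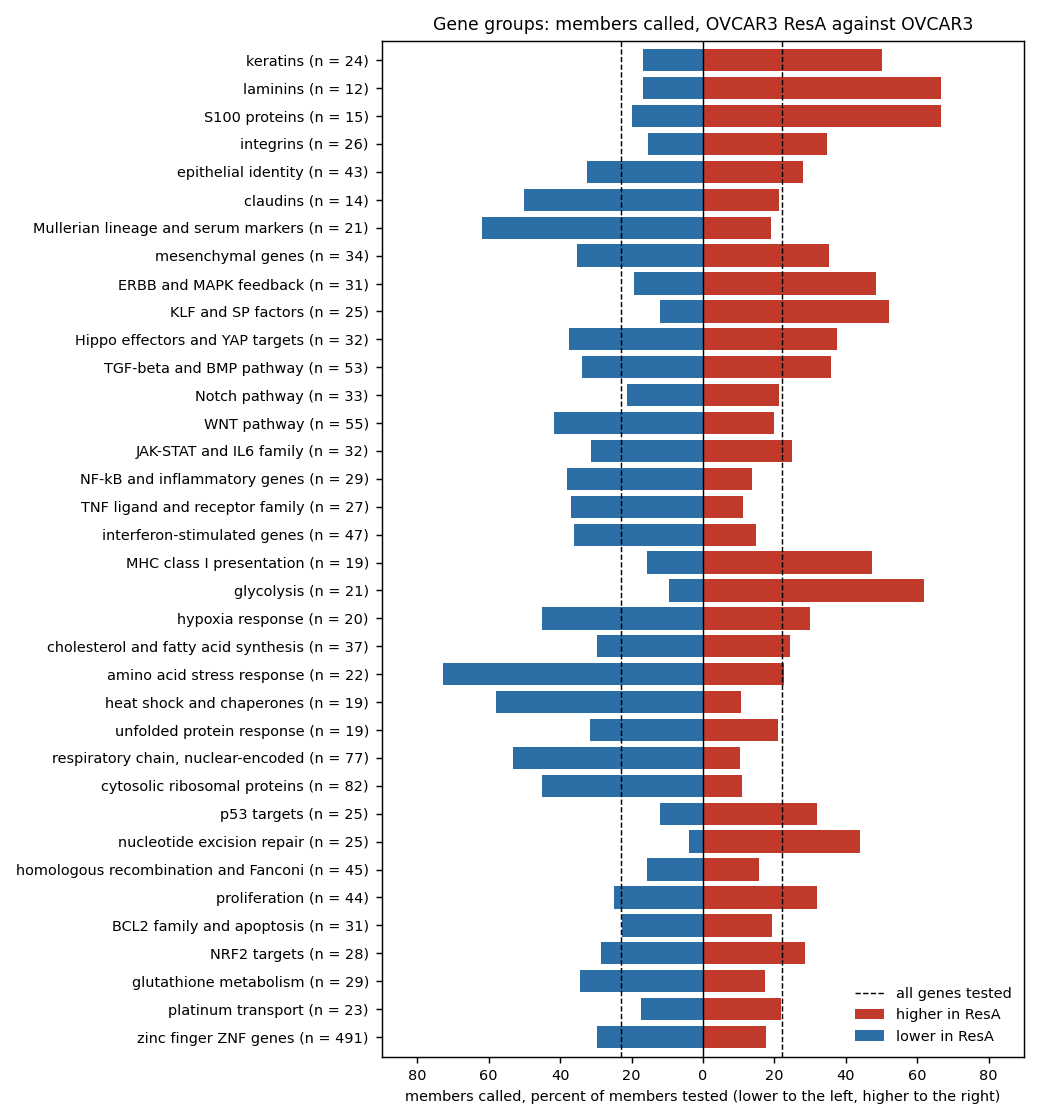
Percent of the tested members of 36 gene groups that were called higher (red, to the right) or lower (blue, to the left) in OVCAR3 ResA than in OVCAR3 by DESeq2 at an adjusted p under 0.05, with n the number of members tested. The dashed lines mark 22.0% and 22.9%, the shares called higher and lower over all genes tested. Laminins, S100 proteins and glycolysis reach furthest to the right, and the amino acid stress response and the Mullerian list furthest to the left.

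Keratins of stratified epithelium rose in ResA while the simple keratin pair fell. Of 24 keratins tested, 12 were higher and 4 lower, with a median log2 fold change of 1.11; without replicate 1, 2 or 3, the number higher was 7, 8 and 6. KRT5, the type II keratin of basal layers, was at 0.468, 0.737 and 0.433 TPM in the OVCAR3 replicates and at 74.3, 79.2 and 179 TPM in those of ResA, a log2 fold change of 7.42 ± 0.57 (SE; adjusted p = 3.15e-37, DESeq2). The ResA and OVCAR3 levels of KRT5 did not overlap, and OVCAR3 ResB stood between them at 8.06 ± 1.502 TPM (mean ± SD, n = 3). KRT4, a keratin of mucosal stratified epithelium, went from 65.3, 44.8 and 37.1 TPM to 518, 300.1 and 442 TPM (7.77-fold), and KRT6A, induced in activated keratinocytes, from 0.697, 0.747 and 0.434 TPM to 10.2, 3.95 and 14.8 TPM (12.5-fold). By contrast KRT18 was at 1651, 2602 and 3020.3 TPM in OVCAR3 and 237, 396 and 505 TPM in ResA, 7.14-fold lower (adjusted p = 2.72e-184, DESeq2), and its partner KRT8 at 2359, 2314 and 2651 TPM and 776, 642 and 777 TPM, 3.69-fold lower. KRT19 rose 2.15-fold, from 603 ± 70.4 to 1446 ± 319 TPM (mean ± SD, n = 3 each), and KRT7 differed by 0.24 on the log2 scale, a call that was lost without replicate 1, 2 or 3 (adjusted p = 0.0884, 0.125 and 0.219, DESeq2). KRT5, KRT6A, KRT4, KRT7, KRT8 and KRT18 are neighbours on chromosome 12, in a stretch where most expressed genes were lower in ResA. In bulk libraries, more cells with a transcript and more of it per cell cannot be told apart.

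Laminin chains of the epithelial basement membrane, which anchors basal cells, were higher in ResA. LAMA3 stood at 45.9, 40.5 and 28.2 TPM in OVCAR3 against 221, 178 and 141 TPM in ResA (4.27-fold higher, adjusted p = 1.55e-88, DESeq2), and LAMB3 at 7.84, 4.88 and 4.69 TPM against 32.6, 26.1 and 21.4 TPM (4.23-fold). No ResA library overlapped an OVCAR3 library for either chain. Over the 12 laminin genes tested, 8 were higher and 2 lower (median log2 fold change 0.72). LAMA4, a chain of vascular and muscle membranes, rose 17.2-fold from 0.411 ± 0.120 to 8.82 ± 3.13 TPM, whereas LAMA1, an embryonic chain, fell from 2.11 ± 0.614 to 0.663 ± 0.166 TPM (3.49-fold). LAMA3 and LAMB3 in ResB were not called different from ResA.

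Integrins that bind epithelial laminins were among the 9 of 26 integrin genes that rose, against 4 that fell. ITGA3 was at 24.3, 22.6 and 22.8 TPM in OVCAR3 and at 205, 179 and 186 TPM in ResA, 7.54-fold higher. ITGB4, the hemidesmosomal beta chain, rose 3.01-fold from 5.97 ± 0.812 to 19.8 ± 2.11 TPM, while its partner ITGA6 had a log2 fold change of -0.01 ± 0.14 (adjusted p = 0.947, DESeq2) with overlapping levels. ITGB6, the activator of latent TGF-beta on epithelium, rose 4.23-fold, and ITGB5 fell 3.25-fold, from 122.9 ± 40.1 to 42.97 ± 8.11 TPM. The S100 proteins, small calcium-binding proteins many of which lie in the epidermal cluster on chromosome 1, were higher for 10 of 15 and lower for 3 (median log2 fold change 1.22). S100A2 was at 71.0, 93.3 and 88.0 TPM in OVCAR3 and 1047, 1243 and 1239 TPM in ResA, 12.7-fold higher (adjusted p = 6.89e-273, DESeq2), and S100A4 at 379, 478 and 357 TPM and 2731, 2971 and 2750.1 TPM, 6.35-fold higher. S100A1 went the other way, from 131 ± 37.2 to 40.2 ± 11.9 TPM. Squamous-type serpins and kallikreins were mixed: SERPINB5 (maspin) rose 3.03-fold and SERPINB7 6.91-fold, KLK5 rose 2.88-fold from 146 ± 5.67 to 463 ± 49.5 TPM, and KLK6 and KLK7 fell 4.36-fold and 5.99-fold.

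The promoters of LAMA3 and S100A2 each hold the AP-1 motif TGANTCA, which FOS and JUN dimers bind, and are shown because both genes rose. The stretches below are RefSeq sequence of GRCh38.p14, read 5′ to 3′ on the gene's strand, with the motif in capitals; LAMA3 is chr18:23872880-23872969 on the plus strand and S100A2 chr1:153565855-153565934 on the minus strand.
LAMA3: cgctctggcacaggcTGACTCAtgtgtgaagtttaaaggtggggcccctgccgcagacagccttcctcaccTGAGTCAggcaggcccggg
S100A2: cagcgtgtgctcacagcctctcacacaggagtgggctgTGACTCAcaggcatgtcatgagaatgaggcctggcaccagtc
In the 300 bases around the RefSeq start (250 before and 50 after) the motif, searched on both strands, occurred in 4.92% of the promoters of all genes tested. Among genes called higher that had a RefSeq promoter, it occurred in 1 of 7 laminin genes, 2 of 10 S100 genes, 0 of 6 integrin genes and 0 of 4 keratin genes, so that most members that rose had no match in this window.

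Tight-junction and other epithelial genes moved in both directions. Of 14 claudins, 3 were higher and 7 lower. CLDN6, an oncofetal claudin, was at 144, 181 and 185 TPM in OVCAR3 and at 0, 0 and 0.0881 TPM in ResA. The ResA libraries held between 1 and 3 counts in total, and the ratio of counts was 5958 (95% interval 1649 to 49201, counting error only). ResB kept CLDN6 at 228 ± 8.46 TPM. CLDN3 fell 12.6-fold, from 114, 118 and 178 TPM to 8.32, 12.8 and 15.03 TPM, and CLDN1 2.34-fold, while CLDN10 rose 2.07-fold. Among 43 genes of epithelial identity, 12 were higher and 14 lower. EPCAM differed by -0.16 ± 0.10 on the log2 scale (adjusted p = 0.177, DESeq2) around 551 ± 56.8 TPM in OVCAR3. CDH1 (E-cadherin) was 1.32-fold higher, a call lost without the replicate term, OVOL1, a factor that holds the epithelial state, rose 8.39-fold, and MUC1 fell 4.197-fold.

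Mesenchymal genes were split evenly, with 12 of 34 higher and 12 lower. N-cadherin CDH2 was at 4.99, 3.42 and 3.68 TPM in OVCAR3 and 0.0783, 0.0596 and 0.0439 TPM in ResA, VIM (vimentin) fell 4.80-fold from 2.65 ± 0.108 to 0.612 ± 0.171 TPM, FN1 (fibronectin) fell 5.34-fold, and MYL9, a smooth-muscle myosin light chain, went from 42.5, 51.5 and 61.9 TPM to 0.671, 2.10 and 1.70 TPM. SPARC was at 2.93 ± 0.497 TPM in OVCAR3, and its ResA libraries held 1 to 3 counts in total (ratio of counts 302, 95% interval 83.2 to 2499). The receptor kinase AXL rose 3.88-fold and the microfibril gene FBN1 7.03-fold, both from levels under 1 TPM on average. Abundant genes outside these lists changed as much. FHL2, a LIM-domain cofactor, was at 18.9, 17.4 and 13.7 TPM in OVCAR3 and 598, 577 and 533 TPM in ResA (30.7-fold), EMP1, an epithelial membrane protein, at 15.6, 13.1 and 11.3 TPM and 437, 477 and 383 TPM (29.4-fold), and the urokinase gene PLAU rose 5.37-fold. PCDH7 rose 11.8-fold, and 6 of 11 non-clustered protocadherins tested were higher and 0 lower. ResB lay between the other 2 lines for FHL2 (109 ± 41.1 TPM) and EMP1 (34.4 ± 22.0 TPM), and ResA exceeded it in the direct test (2.40 and 3.8 on the log2 scale).

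**Figure D2:**
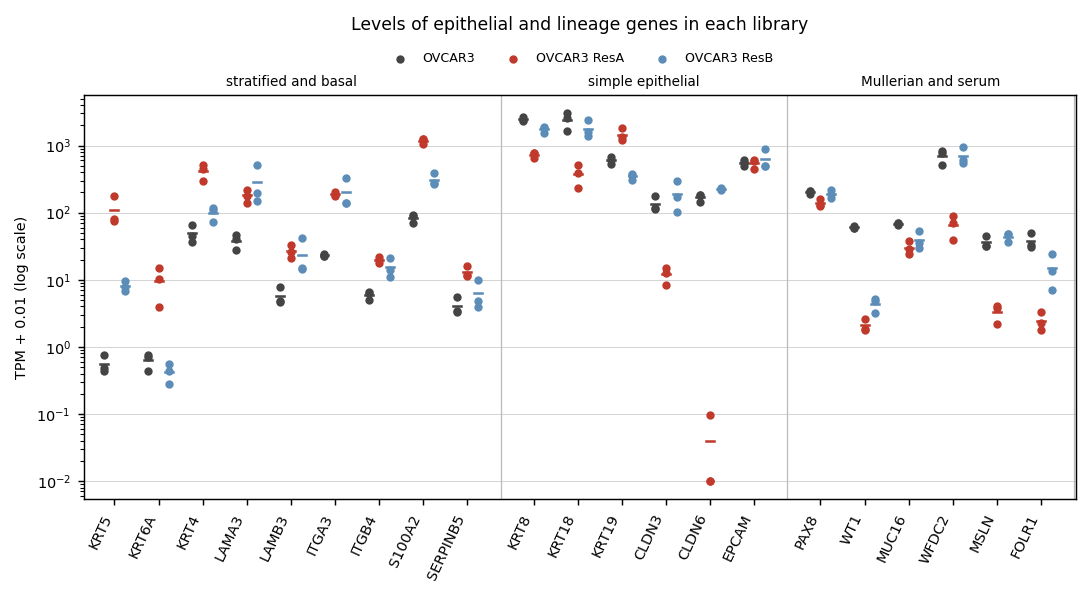
Level of 21 epithelial and lineage genes in each library of OVCAR3 (grey), OVCAR3 ResA (red) and OVCAR3 ResB (blue), in TPM plus 0.01 on a log axis, with a short bar at the mean of the 3 libraries. KRT5 rises from below 1 TPM in OVCAR3 to 111 TPM in ResA, while WT1, WFDC2 and MSLN fall by more than 10-fold.

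The Mullerian lineage list fell in ResA: of 21 genes tested, 13 were lower and 4 higher, with a median log2 fold change of -0.93. WT1, the transcription factor used to recognise serous carcinoma, was at 58.9, 63.6 and 58.4 TPM in OVCAR3 and 1.79, 2.62 and 1.86 TPM in ResA, 31.3-fold lower (adjusted p = 1.23e-237, DESeq2); it was also low in ResB, at 4.40 ± 1.08 TPM. WFDC2, which encodes the serum marker HE4, went from 505, 817 and 783 TPM to 38.9, 69.4 and 87.9 TPM, 12.2-fold lower. MSLN (mesothelin) stood at 31.9, 32.1 and 44.6 TPM against 2.17, 4.05 and 3.74 TPM and the folate receptor FOLR1 at 31.2, 33.1 and 49.5 TPM against 1.79, 2.25 and 3.30 TPM. The groups did not overlap for any of these genes. ResB kept WFDC2 at 707 ± 226 TPM and MSLN at 44.0 ± 6.63 TPM, and the log2 differences of ResA from ResB were -3.54 and -3.79. MUC16, the source of CA-125, fell 2.45-fold, and the lineage factor PAX8 fell less, 1.59-fold, from 187, 212 and 210.2 TPM to 127, 160.3 and 128 TPM. MECOM rose 1.68-fold, and FOXJ1, the master gene of motile cilia, rose from 2.78, 1.64 and 2.83 TPM to 24.8, 33.3 and 30.6 TPM (11.1-fold).

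SLPI, CA2, CRIP1, CLU and CD47 were among the largest decreases of abundant genes. SLPI, a secreted protease inhibitor of the same family as WFDC2, was at 824, 996 and 759 TPM in OVCAR3 and 80.7, 46.2 and 83.1 TPM in ResA (13.9-fold lower). CA2 (carbonic anhydrase II) went from 726 ± 170.1 to 35.6 ± 4.17 TPM, CRIP1 from 504 ± 97.4 to 11.4 ± 4.25 TPM, the chaperone clusterin CLU from 362 ± 83.7 to 56.8 ± 9.01 TPM, and the anti-phagocytic surface protein CD47 from 889, 821 and 716 TPM to 175, 183 and 129 TPM. ResB kept CD47 at 771 ± 267 TPM, above ResA in the direct test, and was not called different from ResA for CRIP1, at 5.22 ± 1.44 TPM. Of the stemness markers, 5 of 21 were higher and 7 lower. SOX2 fell 15.8-fold, from 57.7, 74.3 and 127 TPM to 4.03, 6.13 and 7.68 TPM, and NES (nestin) 18.8-fold, whereas CD44 rose 5.01-fold from 0.863 ± 0.251 to 4.71 ± 0.796 TPM. In the HOX clusters, 4 of 8 HOXC genes were called higher and none lower, and 4 of 8 HOXD genes lower and none higher. HOXD8 was at 6.95 ± 0.653 TPM in OVCAR3 and 2.12 ± 0.264 TPM in ResA, and the other 7 called genes of these clusters were below 5 TPM on average in both lines.

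Genes of growth-factor signalling were more often higher. Ligands of the ERBB receptors signal through RAS and ERK, and the cell answers ERK activity by expressing the dual-specificity phosphatases and Sprouty proteins that restrain it. Of 31 genes of ERBB and MAPK feedback, 15 were higher and 6 lower (median log2 fold change 0.57). Among ligands, TGFA was at 7.70, 5.55 and 4.24 TPM in OVCAR3 and 68.5, 54.3 and 53.3 TPM in ResA, 9.29-fold higher (adjusted p = 8.51e-133, DESeq2), while BTC fell 6.36-fold and NRG2 4.84-fold. Receptors did not follow one direction. EGFR differed by 0.22 ± 0.15 on the log2 scale (adjusted p = 0.239, DESeq2), ERBB2 was 1.23-fold higher, a call lost without replicate 1, 2 or 3 (adjusted p = 0.259, 0.0564 and 0.208), and ERBB4 fell from 9.45, 6.30 and 6.89 TPM to 0.0935, 0.0587 and 0.0695 TPM (114-fold). Among feedback genes PHLDA1 was at 0.349, 0.332 and 0.313 TPM in OVCAR3 and 9.51, 8.91 and 10.8 TPM in ResA (26.5-fold), DUSP6 at 3.87, 7.997 and 6.81 TPM and 16.7, 20.4 and 22.9 TPM (3.15-fold), DUSP5 at 8.25, 11.1 and 16.5 TPM and 33.0, 49.7 and 52.8 TPM (3.48-fold), and IER3, an ERK-responsive survival gene, at 24.8, 37.7 and 54.6 TPM and 105, 193 and 226 TPM (4.06-fold). SPRY4 rose 5.07-fold and DUSP4 4.57-fold. DUSP4 was at 0.758 ± 0.0134 TPM in ResB, close to the parental 0.832 ± 0.164 TPM, and ResA exceeded ResB by 2.43 on the log2 scale (adjusted p = 9.84e-08, DESeq2).

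WNT, TGF-beta and Notch genes moved in both directions, the WNT list more often down. Of 55 WNT genes, 11 were higher and 23 lower (median log2 fold change -0.31), and without replicate 1, 2 or 3 the number lower was 15, 16 and 15. The feedback gene AXIN2, a direct target of beta-catenin, was at 2.48, 2.22 and 1.84 TPM in OVCAR3 and 0.310, 0.437 and 0.457 TPM in ResA, 6.03-fold lower. LGR5, a receptor for R-spondins and a WNT target, was at 3.02, 1.63 and 1.38 TPM in OVCAR3 with 1 to 3 counts in total in ResA (ratio 518, 95% interval 92.5 to 20502), and WLS, which carries WNT proteins to the surface, fell from 101, 96.6 and 107 TPM to 25.3, 25.2 and 25.1 TPM (4.43-fold). WNT11 and the inhibitor DKK2 fell 8.90-fold and 16.7-fold. On the other side WNT7A was at 0.206, 0.0423 and 0.0424 TPM in OVCAR3 and 19.8, 22.7 and 12.3 TPM in ResA, the receptor FZD5 rose 4.36-fold, and NOTUM, a secreted lipase that inactivates WNT proteins, rose 16.5-fold from 0.540 ± 0.0728 to 10.2 ± 3.62 TPM. LEF1 differed by 0.59 ± 0.32 on the log2 scale and did not pass (adjusted p = 0.13, DESeq2). WNT7A in ResB, at 10.9 ± 8.16 TPM, was not called different from ResA, whereas AXIN2 in ResB, at 2.69 ± 1.26 TPM, was.

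In the TGF-beta and BMP list 19 of 53 were higher and 18 lower. The ligand TGFB2 fell from 20.9, 18.3 and 19.6 TPM to 0.166, 0.181 and 0.180 TPM (118-fold, adjusted p = 3.85e-159, DESeq2), TGFB1 differed by 0.46 ± 0.26 on the log2 scale (adjusted p = 0.147, DESeq2), and BMP7 fell 3.97-fold from 227 ± 16.3 to 63.0 ± 1.89 TPM while BMP4 rose 4.37-fold from 2.08 ± 0.593 to 10.2 ± 3.78 TPM. FST (follistatin), which traps activins, fell 51.6-fold from 80.9, 136 and 136 TPM to 1.24, 3.41 and 3.15 TPM. The receptor BMPR1B fell 20.6-fold. Of genes the pathway induces, the inhibitory SMAD7 rose from 4.88, 5.87 and 6.68 TPM to 20.9, 36.9 and 30.8 TPM (4.53-fold) and the BMP target ID1 from 330.0, 429.7 and 532 TPM to 651, 1089 and 966 TPM (1.90-fold). Of 33 Notch genes, 7 were higher and 7 lower, shares close to those of all genes. The Notch target HEY1 fell from 4.82, 6.87 and 11.1 TPM to 0.0542, 0.175 and 0.202 TPM, the Fringe enzyme LFNG fell 21.7-fold, and the ligands parted, JAG2 rising 6.70-fold and JAG1 falling 2.08-fold. NOTCH1 fell 1.66-fold.

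YAP targets and JAK-STAT genes were also mixed. Of 32 Hippo and YAP genes 12 were higher and 12 lower. Of YAP targets that the rule names whatever their change, CYR61 (CCN1) fell 2.12-fold, ANKRD1 7.11-fold from 33.7, 43.3 and 49.3 TPM to 4.69, 9.28 and 6.12 TPM, and CTGF (CCN2) 1.59-fold, the last a call lost without the replicate term. Among other members of this list given above, AXL rose and TGFB2 fell. The angiomotins that hold YAP at junctions moved apart, AMOT falling 4.65-fold and AMOTL1 rising 3.22-fold. In the JAK-STAT list, 8 of 32 were higher and 10 lower. The kinase JAK1 fell 2.44-fold and the feedback gene SOCS3 1.74-fold, the cytokine LIF rose 3.54-fold from 5.36 ± 0.991 to 20.8 ± 3.39 TPM and the receptor IL6R 2.44-fold, and STAT3 differed by -0.17 ± 0.13 on the log2 scale (adjusted p = 0.267, DESeq2).

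**Figure D3:**
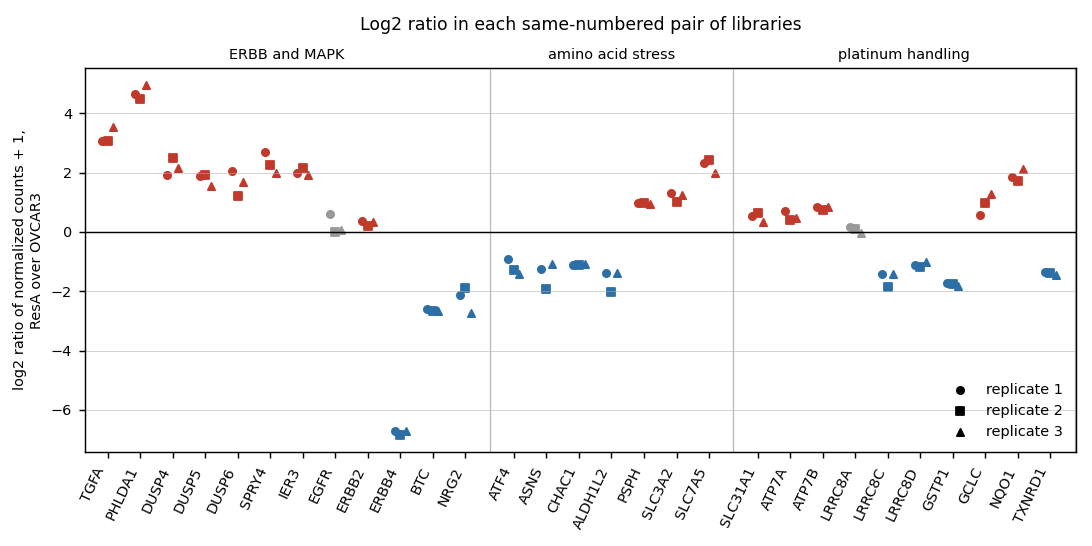
Log2 ratio of ResA to OVCAR3 normalized counts plus 1 in each pair of libraries with the same replicate number (circle 1, square 2, triangle 3) for genes of ERBB and MAPK signalling, the amino acid stress response and platinum handling. Red marks genes called higher, blue genes called lower and grey genes not called by DESeq2. The 3 pairs lie close together for most genes; TGFA and PHLDA1 stand above 3 in every pair, while LRRC8C, LRRC8D, GSTP1 and TXNRD1 lie below 0 in every pair.

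Most genes of the amino acid stress response fell, but the leucine transporter rose. Under amino acid shortage or other stress the factor ATF4 induces genes for amino acid synthesis and uptake. Of 22 genes of this response 16 were lower and 5 higher (median log2 fold change -0.58). ATF4 itself was at 434, 598 and 552 TPM in OVCAR3 and 243, 284 and 228 TPM in ResA, 2.31-fold lower (adjusted p = 1.35e-24, DESeq2), and it lies in a chromosome 22 stretch whose expressed genes were lower as a whole. ASNS (asparagine synthetase) went from 229, 246 and 201 TPM to 98.4, 72.7 and 101 TPM (2.65-fold lower), the glutathione-degrading CHAC1 from 10.9, 14.1 and 17.4 TPM to 5.38, 7.53 and 8.67 TPM (2.15-fold lower), and the mitochondrial folate enzyme ALDH1L2 fell 3.01-fold. PSPH, the last enzyme of serine synthesis, rose 1.96-fold. The 2 chains of the leucine transporter LAT1 rose: SLC7A5 was at 102, 93.0 and 131 TPM in OVCAR3 and 541, 584 and 565 TPM in ResA (4.79-fold) and SLC3A2 at 179.6, 178 and 153 TPM and 470.3, 400.1 and 377 TPM (2.28-fold). For SLC7A5 and SLC3A2 ResA was also above ResB, by 1.15 and 0.92 on the log2 scale.

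ATF4 binds a composite element whose core was searched as TGATGNAA on both strands in the RefSeq promoters (GRCh38.p14, 250 bases before to 50 after the start). It was found in 3 of 13 promoters of members called lower and 2 of 4 of members called higher, against 1.80% of the promoters of all genes tested. The stretches with the core, on either strand, in capitals are shown for members that moved in opposite directions, ASNS and CHAC1 (lower) and ATF3 (higher, 0.70 on the log2 scale, a call lost without replicate 2 or 3, adjusted p = 0.195 and 0.107, DESeq2). They lie at chr7:97872419-97872508 (minus strand), chr15:40953241-40953330 (plus strand) and chr1:212565187-212565266 (plus strand), with the core starting -68, -209 and -191 bases from the RefSeq start.
ASNS: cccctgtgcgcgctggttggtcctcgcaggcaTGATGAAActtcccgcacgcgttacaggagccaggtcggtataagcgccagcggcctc
CHAC1: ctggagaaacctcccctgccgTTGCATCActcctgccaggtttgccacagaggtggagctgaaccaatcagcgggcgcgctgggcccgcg
ATF3: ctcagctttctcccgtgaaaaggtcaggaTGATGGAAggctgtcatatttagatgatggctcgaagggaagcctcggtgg
A match to these letters was therefore present on both sides of the change.

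Among other stress genes, those of heat shock were more often lower, and those of the unfolded protein response moved in both directions. Of 19 heat shock and chaperone genes 11 were lower and 2 higher; without the replicate term these counts were 5 and 0, and without replicate 1, 2 or 3 the number lower was 8, 8 and 7. HSPA1A, the inducible HSP70, fell from 51.0, 49.1 and 67.7 TPM to 4.34, 5.47 and 5.88 TPM (11.8-fold) and the small heat shock protein CRYAB 3.02-fold, from 98.3 ± 19.0 to 37.2 ± 14.6 TPM, against 1871 ± 540.5 TPM in ResB. Of 19 genes of the unfolded protein response 4 were higher and 6 lower. The ER chaperone HSPA5 fell 1.38-fold, XBP1 1.83-fold and DNAJB11 2.27-fold, and HERPUD1 rose 1.66-fold.

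Glycolytic genes were more often higher and genes of the respiratory chain more often lower, both by small steps. Of 21 glycolysis genes 13 were higher and 2 lower (median log2 fold change 0.28). HK2 (hexokinase 2) went from 16.02, 17.6 and 13.1 TPM to 39.4, 33.5 and 40.0 TPM (2.20-fold), the glucose transporter SLC2A1 rose 1.95-fold, and LDHA, which makes lactate, rose 1.82-fold from 741 ± 244 to 1439 ± 237 TPM, while PFKM fell 1.48-fold. Hypoxia targets as a list were not one-sided (6 of 20 higher, 9 lower): EPAS1 (HIF-2 alpha) rose 8.74-fold, EGLN3, a HIF target that marks HIF for decay, fell 12.9-fold from 54.2, 45.6 and 33.3 TPM to 4.55, 4.23 and 2.75 TPM, and VEGFA fell 1.45-fold, a call lost without replicate 1 or 3 (adjusted p = 0.0501 and 0.0509, DESeq2). Of 77 nuclear genes of the respiratory chain 41 were lower and 8 higher (median -0.29), but without the replicate term 15 were lower and 1 higher, and without replicate 1, 2 or 3 the number lower was 30, 24 and 29. UQCRH of complex III fell 2.12-fold from 1068, 1013 and 865 TPM to 526, 494 and 512 TPM and NDUFA13 of complex I 1.995-fold, while SDHB of complex II differed by 0.11 ± 0.13 on the log2 scale (adjusted p = 0.506, DESeq2). Of 82 cytosolic ribosomal protein genes 37 were lower and 9 higher (median -0.21), and 12 and 4 without the replicate term. Individual ribosomal genes still moved far apart, RPS19 rising 2.51-fold from 693, 841 and 974 TPM to 1802, 2437 and 2738 TPM and RPL8 falling 2.08-fold from 2925, 3059.6 and 3229 TPM to 1489.8, 1731 and 1669 TPM. Ribosomal protein genes have many near-identical processed copies, so counts of single members are uncertain. Of 37 cholesterol and fatty acid genes 9 were higher and 11 lower, with HMGCS1 1.93-fold lower and FASN at 0.18 ± 0.11 on the log2 scale (adjusted p = 0.204, DESeq2).

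Genes that handle platinum changed one by one rather than as a list. Of 23 platinum transport genes 5 were higher and 4 lower, shares at or below those of all genes. The volume-regulated anion channel, which admits cisplatin, is built of LRRC8A with other LRRC8 chains. LRRC8D, the chain tied to cisplatin entry, was at 64.0, 70.8 and 63.5 TPM in OVCAR3 and 31.0, 35.97 and 34.0 TPM in ResA, 2.17-fold lower (adjusted p = 8.22e-24, DESeq2), and LRRC8C at 1.51, 1.29 and 1.19 TPM and 0.609, 0.412 and 0.476 TPM, 2.97-fold lower. LRRC8A differed by 0.08 ± 0.12 on the log2 scale (adjusted p = 0.65, DESeq2). No ResA library overlapped an OVCAR3 library for LRRC8C or LRRC8D. Both genes lie on chromosome 1 among 25 expressed genes with a median log2 ratio of ResA to OVCAR3 of -0.35. The stretch before it, which ends at LRRC8B, was lower as a whole (medians -0.62, -0.72 and -0.60 in the same-numbered pairs). LRRC8D in ResB, at 48.7 ± 11.2 TPM, was not called different from ResA. The copper importer SLC31A1 (CTR1) was 1.42-fold higher and the copper exporter ATP7A 1.45-fold higher, calls that were both lost without the replicate term and without replicate 1 (adjusted p = 0.0719 and 0.198, DESeq2). The other copper exporter ATP7B was 1.76-fold higher, lost without replicate 1 or 3 (adjusted p = 0.119 and 0.0733). ABCC3, an exporter of organic anions, was 2.39-fold higher from 0.887 ± 0.200 TPM, lost without replicate 3 (adjusted p = 0.0585), and at 11.1 ± 5.88 TPM in ResB.

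Glutathione genes leaned to the lower side, with 10 of 29 lower and 5 higher. GSTP1, the main glutathione transferase of epithelial tumours, fell from 689, 822 and 735 TPM to 224, 285 and 226 TPM (3.39-fold, adjusted p = 3.14e-71, DESeq2) and MGST1 2.22-fold, while GCLC, the limiting enzyme of glutathione synthesis, rose 1.92-fold from 19.4, 12.03 and 10.7 TPM to 31.0, 27.4 and 28.6 TPM. GPX1 was at 56.8, 59.4 and 58.6 TPM in OVCAR3, 353, 357 and 319 TPM in ResA and 0.181 ± 0.246 TPM in ResB. NRF2 targets were balanced, 8 of 28 higher and 8 lower. NQO1 rose 3.75-fold from 79.8, 83.3 and 62.4 TPM to 310.2, 320.4 and 298 TPM, within a stretch of chromosome 16 that was higher as a whole, and ferritin heavy chain FTH1 rose 2.13-fold, whereas TXNRD1 fell 2.62-fold from 196, 122 and 101 TPM to 80.9, 54.2 and 40.9 TPM, ME1 2.24-fold and PIR 2.13-fold. Of the metallothioneins, 4 were tested, with MT2A 2.10-fold higher (21.4, 38.7 and 43.1 TPM against 34.1, 95.5 and 130.5 TPM), a call lost without the replicate term, and 321 ± 247 TPM in ResB.

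DNA repair genes differed by small steps. Of 25 nucleotide excision repair genes, the route that removes platinum adducts, 11 were higher and 1 lower (median log2 fold change 0.28), but without the replicate term 2 were higher and 0 lower, and without replicate 1, 2 or 3 the number higher was 5 in each. ERCC2, a helicase of TFIIH, rose 2.08-fold from 7.21, 6.42 and 6.34 TPM to 17.9, 13.7 and 14.4 TPM and the ligase LIG1 1.63-fold. ERCC1, of the incision nuclease, was 1.39-fold higher, a call lost without the replicate term and without replicate 1 (adjusted p = 0.0965, DESeq2). XPA at 0.31 ± 0.17 on the log2 scale did not pass (adjusted p = 0.122, DESeq2). ERCC1 and ERCC2 lie among 25 expressed genes with a median log2 ratio of ResA to OVCAR3 of 0.63. LIG1 lies among 25 with a median of 0.35. Neither stretch counted as higher as a whole. Whether ERCC1, ERCC2 and LIG1 rose apart from their neighbours was not tested. Of 45 genes of homologous recombination and the Fanconi pathway 7 were higher and 7 lower, fewer than the share of all genes on both sides. BRCA1 (-0.04 ± 0.19) and FANCD2 (-0.06 ± 0.15) were not called on the log2 scale, BRCA2 was 1.62-fold higher, lost without the replicate term and without replicate 1 (adjusted p = 0.0767), and the checkpoint kinase ATR fell 2.29-fold from 22.7, 19.3 and 14.4 TPM to 11.999, 7.40 and 8.18 TPM, in a lower stretch of chromosome 3. PARP1 fell 2.48-fold from 129, 94.5 and 111 TPM to 56.8, 47.4 and 44.4 TPM and the end-joining ligase LIG4 rose 2.19-fold.

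The p53 target list leaned to the higher side (8 of 25 higher, 3 lower, and 4, 6 and 4 higher without replicate 1, 2 or 3). CDKN1A, which encodes the CDK inhibitor p21, was at 3.95, 1.42 and 2.42 TPM in OVCAR3 and 30.04, 18.2 and 21.8 TPM in ResA, 8.53-fold higher (adjusted p = 1.82e-55, DESeq2), and ResB was at 4.79 ± 1.81 TPM. PHLDA3 rose 2.54-fold and AEN 2.21-fold, TP53INP1 fell 3.46-fold, and MDM2 differed by -0.07 ± 0.11 on the log2 scale (adjusted p = 0.636, DESeq2). Among cyclins and CDK inhibitors 7 of 17 were higher and 9 lower: CCND1 (cyclin D1) rose 2.10-fold from 87.5 ± 6.74 to 201 ± 27.3 TPM, CDK6 fell 5.06-fold from 19.5, 10.5 and 10.3 TPM to 4.11, 2.62 and 2.01 TPM, CDKN1C and CDKN2B fell 4.75-fold and 2.78-fold, CDKN2C rose 2.89-fold, and CCNE1 (cyclin E1) was 1.34-fold lower, a call lost without the replicate term. Of 44 proliferation genes 14 were higher and 11 lower, 0 of them by 2-fold or more. MKI67 was 1.41-fold and GINS1 1.83-fold higher, and MCM7 1.94-fold lower. Of 31 BCL2-family and apoptosis genes 6 were higher and 7 lower. The pro-apoptotic BMF and BOK rose 3.48-fold and 3.11-fold and BCL2L11 (BIM) fell 2.17-fold, while among survival genes MCL1 rose 1.61-fold from 165 ± 5.48 to 290.5 ± 20.2 TPM and BCL2L1 (BCL-XL) differed by -0.06 ± 0.10 on the log2 scale (adjusted p = 0.699, DESeq2).

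Innate immune genes parted into groups that moved in different directions. Interferons induce a large set of genes through STAT and IRF factors, and the same signal raises the MHC class I pathway that presents peptides to T cells. Of 47 interferon-stimulated genes tested 17 were lower and 7 higher (median log2 fold change -0.27). OAS1, a sensor of double-stranded RNA, was at 9.32, 6.77 and 5.99 TPM in OVCAR3 and 0.569, 0.0804 and 0.473 TPM in ResA, 26.2-fold lower (adjusted p = 4.67e-25, DESeq2), OAS3 at 3.84, 2.76 and 2.34 TPM and 0.495, 0.315 and 0.600 TPM, and EPSTI1 at 11.99, 7.94 and 7.26 TPM and 0.484, 0.332 and 0.272 TPM. IRF7, the factor that amplifies interferon production, was at 2.74, 4.42 and 3.50 TPM in OVCAR3 and had 0 counts in all 3 ResA libraries, at least 43.03-fold lower against a floor of 3 counts per library; its call was lost when any 1 replicate was left out (adjusted p = 0.0531, 0.0596 and 0.0575, DESeq2). ISG15 at -0.42 ± 0.21 on the log2 scale did not pass (adjusted p = 0.0881, DESeq2). In the other direction MX1 rose 1.77-fold, IFIH1 1.78-fold and IFI6 1.90-fold; the call of IFIH1 was lost without replicate 3 (adjusted p = 0.0825) and that of IFI6 without replicate 1 or 3 (adjusted p = 0.202 and 0.32). APOBEC3C, a cytidine deaminase, fell 5.99-fold.

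The MHC class I list went the other way, with 9 of 19 genes higher and 3 lower. HLA-B was at 30.4, 19.6 and 19.6 TPM in OVCAR3 and 63.3, 63.2 and 68.4 TPM in ResA (2.58-fold), HLA-F at 0.620, 0.524 and 0.292 TPM and 5.51, 7.02 and 9.73 TPM (14.2-fold) and the peptide transporter TAP1 at 4.43, 3.40 and 2.47 TPM and 9.54, 6.22 and 7.05 TPM (2.02-fold). The HLA genes share sequence, so that reads may be split among them. B2M, the light chain, differed by -0.10 ± 0.10 on the log2 scale (adjusted p = 0.459, DESeq2). The class II gene HLA-DRA fell from 4.16, 4.44 and 1.75 TPM to 0.155, 0.0485 and 0.380 TPM, against 21.9 ± 13.9 TPM in ResB.

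The interferon-stimulated response element was searched as 2 copies of GAAA with any 2 bases between them on both strands of the RefSeq promoters. It was found in 10 of 13 promoters of list members called lower, in 5 of 5 of those called higher and in 9 of 19 of those not called, against 2.86% of the promoters of all genes tested. Stretches are shown for members that fell (EPSTI1 and OAS3) and that rose (IFI6 and IFIH1), with the motif in capitals on either strand; in IFIH1 2 overlapping sites merge. They lie at chr13:42992242-42992321 (minus strand), chr12:112938314-112938393 (plus strand), chr1:27672263-27672362 (minus strand) and chr2:162318775-162318854 (minus strand) of GRCh38.p14.
EPSTI1: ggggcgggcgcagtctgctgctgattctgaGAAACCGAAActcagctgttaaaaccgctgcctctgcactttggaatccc
OAS3: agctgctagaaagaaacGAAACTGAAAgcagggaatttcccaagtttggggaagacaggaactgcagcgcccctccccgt
IFI6: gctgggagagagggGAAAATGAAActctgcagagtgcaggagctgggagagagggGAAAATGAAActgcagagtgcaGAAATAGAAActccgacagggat
IFIH1: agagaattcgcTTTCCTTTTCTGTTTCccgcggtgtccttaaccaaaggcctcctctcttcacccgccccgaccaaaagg
Members on both sides of the change held the motif.

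NF-kB and inflammatory genes were more often lower, with 11 of 29 lower and 4 higher (median log2 fold change -0.39, but -0.03 over the 26 members kept by edgeR's filter on low counts). NFKBIA, the inhibitor that NF-kB itself induces, was at 124, 148 and 114 TPM in OVCAR3 and 56.3, 47.2 and 45.5 TPM in ResA (2.85-fold lower, adjusted p = 2.57e-28, DESeq2), the other feedback gene TNFAIP3 at 3.06, 3.67 and 2.90 TPM and 0.820, 1.06 and 0.899 TPM, the adhesion molecule ICAM1 at 3.62, 3.54 and 3.19 TPM and 0.524, 0.427 and 0.629 TPM and the chemokine CX3CL1 at 4.12, 3.72 and 5.19 TPM and 0.260, 0.106 and 0.347 TPM. IL8 (CXCL8) fell 5.79-fold, whereas CXCL1 rose 3.45-fold from 13.2, 16.7 and 21.9 TPM to 44.8, 93.0 and 64.0 TPM, and IL6 at -0.77 ± 0.60 on the log2 scale did not pass (adjusted p = 0.302, DESeq2). The TNF ligand and receptor family had 10 of 27 lower and 3 higher. In the direct comparison with ResB, 11 of 28 genes of the NF-kB list were lower in ResA and 0 higher, against 7.47% and 6.04% of all genes tested. The list was also higher in ResB than in OVCAR3 for 11 of 29 genes and lower for 0. ICAM1 was at 14.4 ± 5.19 TPM and TNFAIP3 at 9.70 ± 6.56 TPM in ResB.

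**Figure D4:**
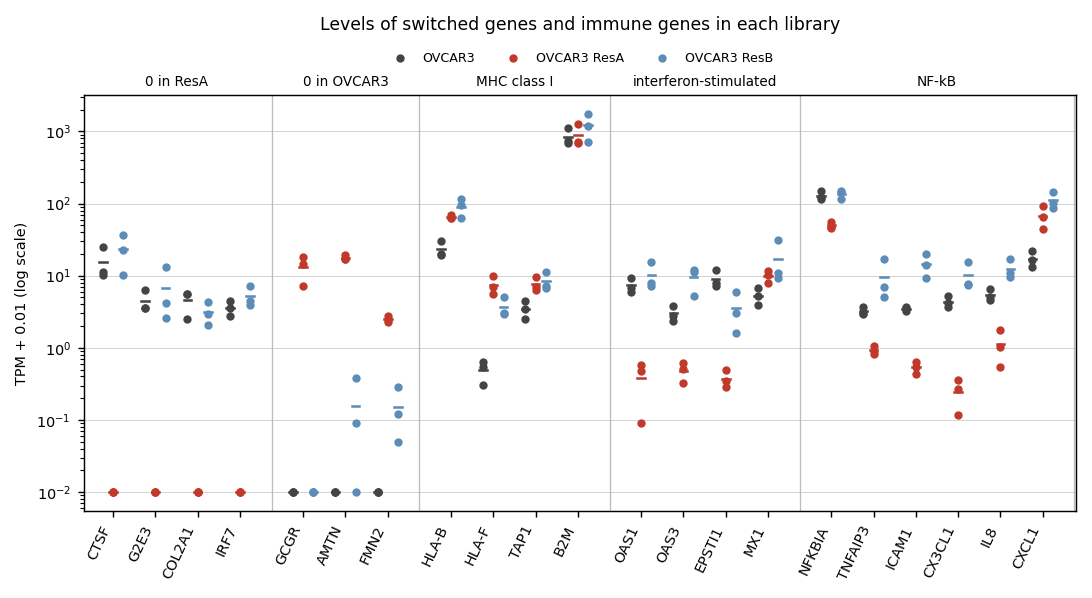
Level in each library of OVCAR3 (grey), OVCAR3 ResA (red) and OVCAR3 ResB (blue) of genes with no count in one line and of MHC class I, interferon-stimulated and NF-kB genes, in TPM plus 0.01 on a log axis with a short bar at the mean of 3 libraries. CTSF, G2E3, COL2A1 and IRF7 lie at the bottom of the axis in ResA and above 1 TPM in every OVCAR3 and ResB library, HLA-B is above the parent in ResA, and OAS1, ICAM1 and CX3CL1 are below it.

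Some genes were counted in one line and not in the other. With a mean of at least 100 normalized counts in OVCAR3, 9 genes had 0 counts in every ResA library after the estimated counts were rounded to whole numbers, and 8 of them were at 1 TPM or more on average in ResB. CTSF (cathepsin F) was at 24.8, 10.4 and 11.2 TPM in OVCAR3 (at least 185-fold lower in ResA), the ubiquitin ligase G2E3 at 6.27, 3.56 and 3.57 TPM (at least 142-fold lower), and the cartilage collagen COL2A1 at 2.46, 5.53 and 5.61 TPM (at least 145-fold lower). SSX2, a cancer-testis antigen with a near-identical copy, was at 25.6, 20.2 and 32.7 TPM in OVCAR3 and 0 in ResA, and summed with its copy it fell from 595, 799 and 768 normalized counts to 0.909, 1.79 and 0. The copper carrier CP (ceruloplasmin) was at 157, 86.2 and 88.5 TPM in OVCAR3 and 0.152, 0.0158 and 0.0480 TPM in ResA. Conversely, 10 genes with a mean of at least 100 normalized counts in ResA had 0 counts in every OVCAR3 library, 2 of which, both uncharacterised loci, did not pass the test. GCGR, the glucagon receptor, was at 7.16, 18.1 and 14.4 TPM in ResA (at least 128-fold higher), AMTN (amelotin) at 17.2, 17.003 and 19.3 TPM and the actin nucleator FMN2 at 2.28, 2.74 and 2.39 TPM. HS3ST3B1, a heparan sulfate sulfotransferase, was at 27.6, 29.0 and 25.6 TPM in ResA with 1 to 3 counts in total in OVCAR3, SLIT3 at 8.38, 6.86 and 6.43 TPM, and the glutamate transporter SLC1A6 at 18.9, 20.1 and 25.4 TPM. Of GCGR, AMTN, FMN2, HS3ST3B1, SLIT3 and SLC1A6, only SLC1A6 exceeded 1 TPM on average in ResB, at 15.5 ± 7.76 TPM. SLX1A also belongs to the set, but summed with its near-identical copy SLX1B it differed only 1.32-fold, and no change is read from it.

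By DESeq2, the zinc finger genes named ZNF were lower more often than higher by 2-fold. Of 491 tested, 145 were lower and 86 higher, and 78 were lower by at least 2-fold against 15 higher. Over all genes tested, 9.82% were lower and 7.98% higher by at least 2-fold. ZNF300 was at 6.40, 11.6 and 8.72 TPM in OVCAR3 and 0, 0.0398 and 0 TPM in ResA, ZNF43 at 2.87, 3.06 and 3.22 TPM and 0.0116, 0.0111 and 0.0109 TPM and ZNF844 at 2.98, 1.69 and 1.83 TPM and 0.126, 0.0411 and 0.0356 TPM. ZNF43 was also near 0 in ResB (0.0969 ± 0.0876 TPM), whereas ZNF844 kept 2.71 ± 1.16 TPM there. With limma on log2(TPM + 1), which changed the scale, the test and the set of genes together, 132 ZNF genes were called higher and 85 lower, and the median over all genes was 0.14 on the log2 scale rather than -0.02. The direction of the family count was thus not kept, and which of these changes turned it was not tested. Of 25 KLF and SP factors 13 were higher and 3 lower.

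Many changes ran along chromosomes. The 12714 genes with a mean of at least 50 normalized counts, where RefSeq gave a position in GRCh38.p14, were put in order, and 12075 of them filled 483 windows of 25. In 46 windows (9.52%) the median log2 ratio of ResA to OVCAR3 was beyond 0.5 on the same side in all 3 same-numbered pairs, 22 higher and 24 lower, on 13 chromosomes. The medians over all placed genes were 0.03, 0.03 and 0.01 in the 3 pairs. The longest run of adjacent lower windows was chr12:45725720-56127514, with 125 genes and medians of -0.81, -0.80 and -0.79. In it 87.2% of genes were on the lower side and 109 were called. This run holds KRT5, KRT6A, KRT4, KRT7, KRT8 and KRT18, with KRT8 and KRT18 below the median of their windows and KRT5 and KRT4 far above it. Further lower runs were chr3:133600238-156539138 (75 genes, medians -0.91, -0.84 and -0.78), which holds CP, ATR and MRPS22, chr7:66996833-91210590 (75 genes, -0.73, -0.76 and -0.70) and chr22:36510855-40335808 (50 genes, -0.87, -0.75 and -0.83), which holds ATF4 and APOBEC3C. Higher runs were chr16:67846933-89237141 (125 genes, 0.76, 0.78 and 0.68), where 94.4% of genes were on the higher side and which holds NQO1 and SLC7A5, chr15:77100654-101078257 (100 genes, 0.80, 0.74 and 0.80), which holds AEN, chr1:110339377-145978848 (75 genes, 0.59, 0.51 and 0.66) and chr9:37915898-85805483 (50 genes, 0.67, 0.74 and 0.82). G2E3 lay in a lower window of chromosome 14 with a median of -0.85.

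Set against ResB, ResA was on the same side in the chromosome 22 run (medians -1.21, -1.22 and -0.97 against the libraries of ResB with the same number), the chromosome 7 run (-0.81, -0.86 and -0.90) and the chromosome 15 run (0.60, 0.59 and 0.53), and of these 6 runs the difference was largest in that of chromosome 9 (1.27, 1.41 and 1.06). In the chromosome 3 run the medians against ResB were -0.36, -0.13 and -0.63 and in the chromosome 12 run -0.26, -0.50 and -0.60, smaller than those against OVCAR3. The windows were chosen by the values given here and are a description with no test. Fewer copies of a stretch of DNA and less RNA per copy cannot be told apart in these data.

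**Figure D5:**
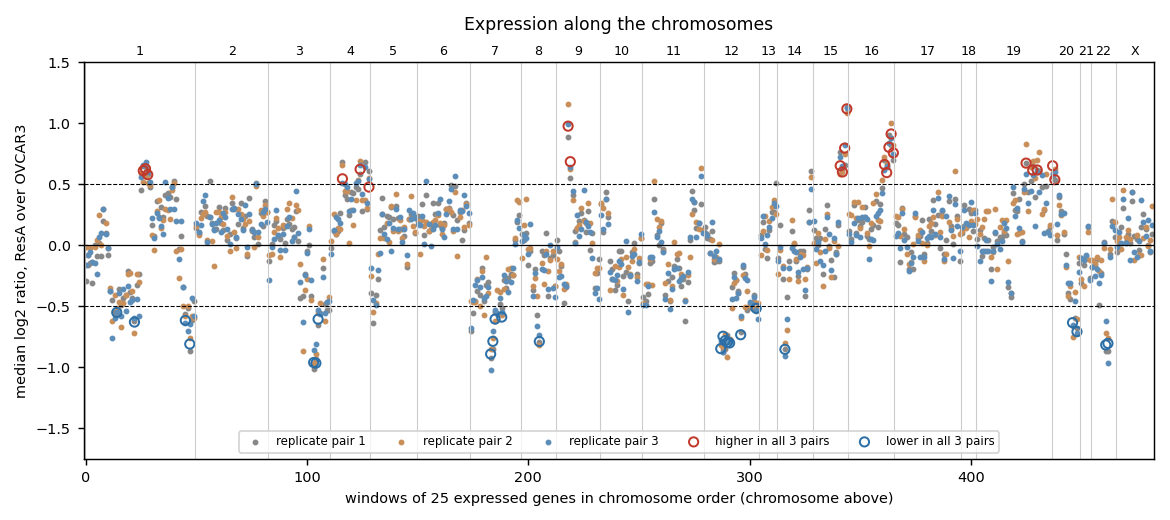
Median log2 ratio of OVCAR3 ResA to OVCAR3 over windows of 25 expressed genes in chromosome order, with 1 point for each same-numbered pair of libraries and chromosome names above. Circles mark windows in which all 3 pairs were beyond 0.5 (dashed lines) on the same side, at the mean ratio. The 3 pairs overlie each other, and adjacent windows on chromosomes 3, 7, 12, 15, 16 and 22 share a direction.

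By the same fit ResB differed from OVCAR3 for 1255 of 16352 genes (7.67%), and without the replicate term for 1763 of 17977 (9.81%). The direct comparison of ResA with ResB called 2202 of 16301 genes (13.5%), 984 higher in ResA (6.04%) and 1218 lower (7.47%), and 3242 of 17924 (18.1%) without the term. These counts are not set against the 44.9% of ResA and OVCAR3, whose libraries the numbers pair. Among the changes described above, those not called between ResA and ResB, with or without the replicate term, included LAMA3, LAMB3, ITGA3, MUC16, CRIP1, DUSP5, DUSP6, WNT7A, LRRC8D and HLA-B; a p that misses the threshold does not show equal levels. Those called in the direct test, with and without the replicate term, included KRT5, KRT18, S100A2, CLDN6, WFDC2, MSLN, TGFA, AXIN2, ATF4, SLC7A5, CDKN1A, GSTP1, NQO1, OAS1 and NFKBIA. ResB replicate 3 deviated together with replicate 1 of ResA rather than with replicate 3, so the numbers do not pair these lines.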

How the data were processed

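Gene levels were measured by mRNA sequencing of cell line libraries prepared with 10 cycles of PCR. Per the study's methods and the submitters' processing notes, reads were demultiplexed with DRAGEN and passed through the nf-core/rnaseq pipeline with GRCh38, and the authors deposited 1 table of salmon estimated counts and 1 of salmon TPM per gene for all 33 libraries. The annotation release and strand setting are not given in the sources used here, so reads of overlapping or antisense genes may not be told apart. Multi-mapping reads are shared by the estimate, which makes near-identical copies uncertain.

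The deposited estimated counts were rounded and the 29744 genes of the table were fitted with DESeq2 (version 1.42.0, R 4.3.3), with the line and the replicate number as terms, on the 6 libraries of the comparison. The Wald test's p-values were adjusted by the Benjamini-Hochberg method, and genes under 0.05 were called. The 7832 genes at 0 in all 6 libraries and those removed by DESeq2's independent filter had no adjusted p. The replicate number was kept as a block because labels share it and same-numbered libraries deviated together (correlations of deviations from the line means of 0.759, 0.351 and 0.582 over 12714 genes). Levels are the deposited TPM values. ResA and ResB were compared by the same fit, and a difference between them is named only where it was called with and without the replicate term. Alternatives were no replicate term, edgeR quasi-likelihood (4.0.16), TMM size factors, edgeR's count filter, a fit of 9 libraries with ResB, limma (3.58.1) on log2(TPM + 1) for genes with a mean of at least 1 TPM, and each replicate left out. On counts simulated for 21912 genes of this comparison, DESeq2 recovered 79 of 100 genes changed 2-fold and called 18 of 21712 unchanged genes. The simulated counts were drawn from the fitted dispersions with no replicate effect, and only genes with a mean of at least 50 normalized counts were changed. They cannot give the error rate in the real libraries, where same-numbered libraries deviated together.

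Genes were named by a rule: the anchors of each list, up to 3 members per direction with the largest change in each list or family, and the 15 largest changes per direction overall and among genes of at least 100 TPM, all called, with a mean of at least 100 normalized counts and the same sign in the 3 pairs. ATF3, CHAC1, DUSP4, DUSP5, HLA-F, IER3, IRF7, ITGA6, LAMB3, LGR5, MSLN and SPARC, and the pair SLX1A and SLX1B, were added after their values were seen. Some genes that the rule picks are not reported here. The lists, families and comparison were chosen with earlier results of these data known. A fold against a line with 0 counts was set against a floor of 3 counts per library, and with 1 to 3 counts in the line a ratio with an exact 95% interval is given; floors and intervals cover counting error only. Positions and promoters came from RefSeq tables of GRCh38.p14, matched by symbol for 24926 genes.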

Additional observations from a re-analysis of the deposited data

Results flagged for a closer look

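For 11 of the genes named here the 2 resistant lines moved in opposite directions from OVCAR3, each change called by DESeq2 (for ResB also without the replicate term), and the direct difference between ResA and ResB was called with and without the replicate term. The share of all genes tested that did so was not counted, and many of the named genes were picked for a large change in ResA. Both comparisons share the OVCAR3 libraries, so that the direct difference is the value to read for size. Its sign follows from the opposite directions and is no separate support. Lower in ResA and higher in ResB than in the parent were the keratin KRT23 (log2 difference of ResA from ResB -2.38), the claudin CLDN1 (-2.45), the small heat shock protein CRYAB (-5.74), the RNA sensor OAS3 (-4.32), the class II chain HLA-DRA (-6.81) and the class II invariant chain CD74 (-2.75). The NF-kB genes ICAM1 (-4.75), TNFAIP3 (-3.20) and CX3CL1 (-5.44) behaved in the same way. HLA-DRA was at 3.45 ± 1.48 TPM in OVCAR3, 0.195 ± 0.169 TPM in ResA and 21.9 ± 13.9 TPM in ResB (mean ± SD, n = 3 each), and CD74 at 50.7 ± 11.1, 36.5 ± 7.97 and 239.7 ± 49.0 TPM. Higher in ResA and lower in ResB were CLDN10 (2.50) and the peroxidase GPX1 (11.31), which was nearly absent from ResB. The fall of CD74 in ResA was lost without the replicate term. With 3 libraries a line, no library was tested as an outlier.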

How the results depend on the processing

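The replicate block set the number of calls more than their direction. Without it 5456 genes were called, 2570 of them higher, against 8146 and 3992 with it. In 1 fit of 9 libraries with ResB, where the block does not pair the third line, 4095 were called (1890 higher and 2205 lower). Leaving out each replicate in turn gave 4920 to 5772 calls (2359 to 2777 higher, 2561 to 2995 lower), with fewer libraries in the fit; replicate 1 gave the lowest and replicate 2 the highest of each. On log2(TPM + 1), limma called 2728 lower, and 63.7% of its calls were higher in ResA against 49.0%. TMM size factors gave 8151 calls, edgeR's count filter 8158 and edgeR's quasi-likelihood test 9165.

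For ResA against ResB, 3242 genes were called without the replicate block and edgeR called 1419 (603 higher), against 2202 with DESeq2. For ResB against OVCAR3, a fit without the block, added after the data were seen, called 1763 genes against 1255. For ResA against ResB, leaving out a replicate gave 791 to 3724 calls (294 to 1775 higher, 497 to 1949 lower). These counts were lowest without replicate 2 and highest without replicate 3. Same-numbered libraries of ResA and ResB had correlations of deviations of -0.12, 0.47 and -0.66, so the numbers do not pair them.

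Of the 216 genes named, 203 kept direction and side of the threshold without the block, 213 with edgeR, 216 with TMM and with the count filter, 196 in the 9-library fit, 207 of 215 on the TPM scale, and 204 to 211 with a replicate left out. The counts of members called in a gene group were less stable. Of 184 such counts, higher and lower taken apart, 64 moved beyond a set ratio without the block and 96 in the 9-library fit. On the TPM scale 54 moved, with a replicate left out 52 to 68, with edgeR 19, with the count filter 9 and with TMM 0. The log2 fold changes that turned sign all belonged to genes not called. ITGA6 was at 0.0097 in the 9-library fit, 0.11 on the TPM scale and -0.11 to 0.084 with a replicate left out. BRCA1 was at 0.077 without the block, 0.038 in the 9-library fit, 0.031 on the TPM scale and -0.35 to 0.22 with a replicate left out. MDM2 was at 0.090 on the TPM scale and -0.14 to 0.022 with a replicate left out, and FANCD2 at 0.058 and -0.20 to 0.076. BCL2L1 and B2M were at 0.057 and 0.045 on the TPM scale. Apart from fewer libraries, the cause was not tested. Windows of 50 genes gave 8.90% shifted against 9.52% for windows of 25. Depth limits the genes at under 3 counts in a line to ratios or bounds.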

Other observations

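Further gene groups of OVCAR3 ResA were counted in the same way. Of 8 mismatch repair genes 2 were higher and 1 lower, none by 2-fold, and of 23 genes of translesion synthesis and end joining 2 were higher and 2 lower, a smaller share than over all genes on both sides. Of 13 cadherins 2 were higher and 5 lower, of 10 MHC class II genes 1 was higher and 2 lower, and of 4 APOBEC3 cytidine deaminases none was higher and 3 lower. Of 76 mitochondrial ribosomal protein genes 13 were higher and 30 lower, and of 37 proteasome genes 7 were higher and 18 lower; on the TPM scale the proteasome counts were 9 and 8.

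The antioxidant response element core TGACNNNGC, searched on both strands, was in 3 of 5 RefSeq promoters of NRF2 targets called lower (TXNRD1, ME1 and PIR), 0 of 7 of those called higher and 3 of 9 of those not called, against 14.8% of the promoters of all genes tested. Among genes at 0 counts in one line, the promoter held a median of 17 CpG dinucleotides where ResA was at 0 (5 genes with a promoter) and 21 where OVCAR3 was at 0 (7 genes), against 25 over all promoters. The 7 genes include SLX1A, with 25, from which no change is read.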
